A study of Homo sapiens with 4 samples.

Results

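The least cycling cells of each library were described across 4 single-cell RNA-seq libraries of the prostate cancer line LNCaP. For every cell, the unique molecular identifiers (UMIs, counted RNA molecules) of 16 cell cycle genes were summed and divided by the cell's total UMIs. The cells with the lowest 25% of this score in their own library were taken. They numbered 3861 of 15452 cells that had at least 1500 detected genes, at least 5000 UMIs and under 20% mitochondrial UMIs. There were 504 of 2019 cells in LNCaP, 1141 of 4565 in LNCaP-ENZ48 cells, 1157 of 4629 in RES-A cells and 1059 of 4239 in RES-B.

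LNCaP is an androgen-responsive human prostate cancer line, and enzalutamide is an antagonist of the androgen receptor. The library named LNCaP came from parental cells given the vehicle, 0.1% DMSO, for 48 hours, and LNCaP-ENZ48 from parental cells given 10 µM enzalutamide for 48 hours. RES-A and RES-B are LNCaP derivatives selected for resistance by long exposure to agents directed at the androgen receptor, and they were kept in 10 µM enzalutamide whenever they were split or fed. All 4 cultures grew in RPMI 1640 with fetal bovine serum, and living cells were sorted by flow cytometry before capture. Whether damaged cells were left among the least cycling cells was not tested. Each group is 1 library from 1 culture, and RES-A and RES-B are each 1 derived line, so no difference between groups has a replicate check and none was tested.

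A dividing cell copies its DNA in S phase and separates the copies in mitosis, and many genes for these steps are transcribed only when they are needed. The E2F factors drive the S phase genes, while a repressor complex called DREAM keeps both the S phase and the mitotic genes off in G1 and in resting cells. Promoters of mitotic genes often carry a short element, the cell cycle genes homology region (CHR, TTTGAA), close to a CCAAT box. Cells with low cell cycle transcripts may be in G1 or resting, and transcript counts of this depth do not separate these states.

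The promoters of 5 genes that stood lower in the least cycling cells of all 4 libraries are shown, because the CHR letters are visible just upstream of the start. Each is the 100 bases before the RefSeq transcription start on GRCh38.p14, read 5′ to 3′ along the gene's strand, with TTTGAA or its reverse complement in capitals. HMMR (chr5:163460532-163460631, plus strand), a spindle protein, CDC20 (chr1:43358881-43358980, plus strand), which activates the anaphase-promoting complex, CCNB2 (chr15:59105046-59105145, plus strand), a mitotic cyclin, CKS1B (chr1:154974581-154974680, plus strand), a subunit of cyclin-dependent kinases, and SMC4 (chr3:160399550-160399649, plus strand), a condensin subunit, are given in this order.
HMMR: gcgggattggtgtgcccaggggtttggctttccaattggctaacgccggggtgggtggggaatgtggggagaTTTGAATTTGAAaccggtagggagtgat
CDC20: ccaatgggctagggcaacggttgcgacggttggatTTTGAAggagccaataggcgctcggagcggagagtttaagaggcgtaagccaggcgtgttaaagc
CCNB2: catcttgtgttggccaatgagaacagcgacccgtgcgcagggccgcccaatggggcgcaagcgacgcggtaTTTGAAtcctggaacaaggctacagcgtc
CKS1B: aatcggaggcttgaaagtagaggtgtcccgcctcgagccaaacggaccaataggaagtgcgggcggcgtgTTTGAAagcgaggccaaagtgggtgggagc
SMC4: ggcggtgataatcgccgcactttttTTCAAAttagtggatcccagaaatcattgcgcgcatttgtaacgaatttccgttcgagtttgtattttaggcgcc
The 5 genes were picked for holding these letters, so their windows are no test of a difference from other genes. In the same window, 49 of 2875 promoters of genes with enough UMIs in every library hold them. The windows of 2 genes that stood higher in the least cycling cells are printed as well and hold no such match. These are AIDA (chr1:222712492-222712591, minus strand) and MME (chr3:155079572-155079671, plus strand).
AIDA: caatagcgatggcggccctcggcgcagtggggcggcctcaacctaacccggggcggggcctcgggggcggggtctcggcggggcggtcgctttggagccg
MME: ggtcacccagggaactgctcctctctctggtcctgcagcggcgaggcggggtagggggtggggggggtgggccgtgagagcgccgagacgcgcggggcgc

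The motif was then counted over all matched promoters, from 250 bases before to 50 after the start (300 bases, both strands). Of 131 genes lower in all 4 libraries and outside the score, 112 had a RefSeq promoter, and TTTGAA lay in 35 of these (31.3%). It lay in 232 of the 2875 promoters of genes with enough UMIs in every library (8.07%), in 4212 of all 27305 promoters (15.4%) and in 1 of the 6 promoters available for genes higher in all 4 libraries. In the last 100 bases before the start, the lower genes held it in 13 of 112 (11.6%) and the genes with enough UMIs in 49 of 2875 (1.7%). CCAAT (either strand) lay in 66 of 112 promoters of the lower genes (58.9%) against 39.1% of the genes with enough UMIs. The E2F letters TTTGGCGC or TTTCGCGC (either strand) lay in 10 of 112 (8.93%) against 2.02%. The letters are a description of these windows and not a sign that a factor was bound.

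The 4 libraries held 2358 to 5156 barcodes, and each pair shared 2 to 10 barcodes among the cells kept, with 0 or 1 among the least cycling cells. LNCaP was sequenced more deeply per cell than the others, with a median of 25459 UMIs in its least cycling cells against 13612 in LNCaP-ENZ48 cells, 12080 in RES-A cells and 11942 in RES-B. Summed over the least cycling cells, a library gave 13054435 to 16170477 UMIs. Levels are the UMIs of a gene over all UMIs of the summed cells, in counts per 1e6 UMIs (CPM). All intervals are 95% intervals that cover counting error only. They are exact, apart from those of differences of log2 ratios, which are approximate.

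How well the score separates these cells was examined first. The median score was 205 CPM in the least cycling cells and 730 CPM in the rest of LNCaP, 151 and 542 CPM in LNCaP-ENZ48 cells, 451 and 2036 CPM in RES-A, and 312 and 1019 CPM in RES-B. These medians are fixed by the rule, and the score rested on few molecules. A least cycling cell held a median of 5 UMIs of the 16 genes in LNCaP, 2 in LNCaP-ENZ48 cells, 5 in RES-A cells and 4 in RES-B. No UMI of any of the 16 genes was found in 7, 122, 10 and 18 of these cells, in the same order.

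The limit of the lowest 25% cut through a continuous range of scores. The highest score inside it and the lowest outside were 276.6 and 277.0 CPM in LNCaP, 235.2 and 235.6 in LNCaP-ENZ48 cells, 629.7 and 630.0 in RES-A, and 450.6 and 450.7 in RES-B. Within 10% of the limit lay 117 cells inside and 89 outside in LNCaP, 164 and 184 in LNCaP-ENZ48 cells, 206 and 180 in RES-A, and 188 and 175 in RES-B. The least cycling cells are therefore a range of the score and not a separate cell type.

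When the UMIs of every cell were split at random into 2 parts, 51.8% of the cells chosen on one part in LNCaP were also chosen on the other. The shares were 45.05% in LNCaP-ENZ48 cells, 53.4% in RES-A cells and 48.5% in RES-B, so about as many cells changed side as stayed. The cells of each library were further divided by score into 4 bins of equal size, of which bin 1 holds the least cycling cells. Cells put in bin 1 on one part of the UMIs in LNCaP had a score of 283 CPM in the other part, against 367, 802 and 5315 CPM for bins 2, 3 and 4. In RES-A, the same 4 values were 620, 811, 2110 and 6429 CPM. Bin 1 was thus close to bin 2 and far from bin 4.

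Depth and mitochondrial share of the least cycling cells were near those of the rest. Median UMIs were 25459 against 27077 in LNCaP, 13612 against 14112.5 in LNCaP-ENZ48 cells, 12080 against 12190 in RES-A cells and 11942 against 12688.5 in RES-B. At 5000 UMIs a cell, the least cycling cells showed a median of 1687 genes against 1767 in LNCaP, 1657 against 1710 in LNCaP-ENZ48 cells, 1768 against 1800 in RES-A cells and 1818 against 1862 in RES-B. The median mitochondrial share was higher in the least cycling cells of every library, by the most in RES-A (10.8% against 10.3%). The part of these small offsets in the gene differences was not tested.

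Because the rule takes 25% of every library, it cannot show whether one library held more such cells. A common limit was used for that question. Every cell was thinned to 5000 UMIs, and the limit was the value that the lowest 25% of LNCaP cells reached, 1 UMI of the 16 genes. At or under this limit lay 31.3% of LNCaP cells (29.2 to 33.3%), 37.8% of LNCaP-ENZ48 cells (36.4 to 39.3%), 9.94% of RES-A cells (9.09 to 10.8%) and 17.9% of RES-B cells (16.7 to 19.1%). The intervals of the 4 libraries did not overlap, but each is 1 library.

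The order of the 4 libraries was the same without thinning, where 24.96, 32.0, 3.82 and 10.0% of cells were at or under the limit. It was also the same after thinning to 2000 UMIs, with 33.8, 39.5, 14.8 and 23.2%. When TUBA1B, STMN1, HMGB2 and CKS2 were left out of the score, the limit reached by the lowest 25% of LNCaP cells became 0 UMIs, and the shares were 39.0, 48.6, 30.6 and 34.4%. RES-A was again the lowest, but closer to the others, with both the genes and the limit changed. TUBA1B, an alpha tubulin that every growing cell makes, was found at 5000 UMIs in 65.3% of the least cycling cells of RES-A, against 29.8% in LNCaP, 23.6% in LNCaP-ENZ48 cells and 36.9% in RES-B.

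**Figure D1:**
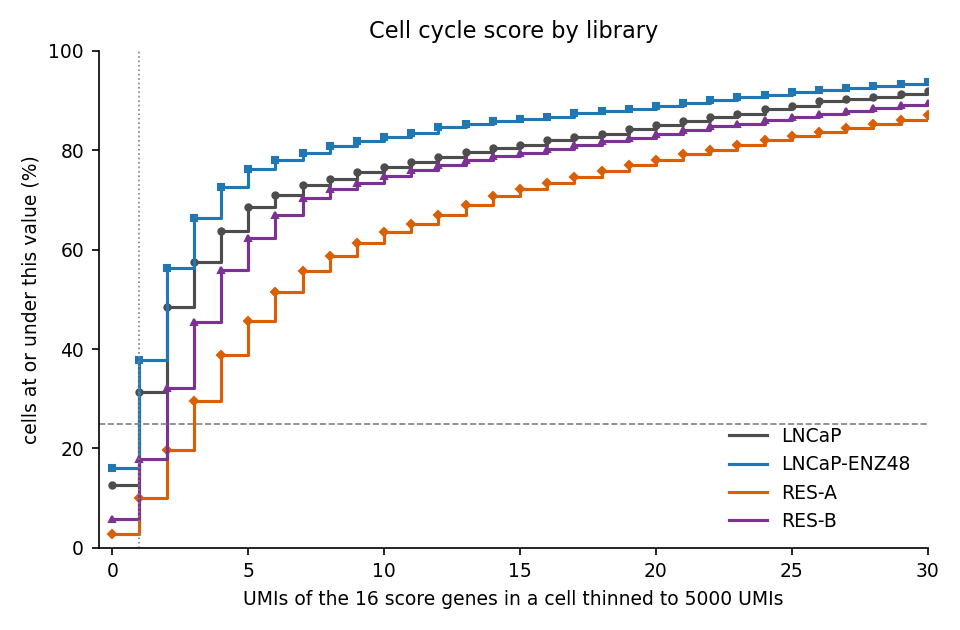
Share of cells (percent) at or under each number of UMIs of the 16 score genes, with every cell thinned to 5000 UMIs, 1 line per library. The dotted line marks 1 UMI, the common limit, where LNCaP stands at 31.3%, LNCaP-ENZ48 at 37.8%, RES-A at 9.94% and RES-B at 17.9%, and the dashed line marks 25%.

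The genes proposed as markers of these cells were checked next, and none of the 3 was higher by a log2 ratio of 0.3 or more in every library. SLC4A4, a sodium bicarbonate cotransporter, had 55.5 CPM in the least cycling cells and 34.6 CPM in the rest of LNCaP (log2 ratio 0.68, 0.55 to 0.81), and 53.2 against 43.7 CPM in LNCaP-ENZ48 (0.28, 0.17 to 0.40). It was near the limit of detection in RES-A, at 2.46 against 2.23 CPM, and low in RES-B, at 9.91 against 7.48 CPM. The difference in SLC4A4 thus had the same sign in 4 of 4 libraries, with an interval that included 0 in RES-A, and reached 0.3 at a level of 25 CPM or more in LNCaP alone.

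BTG1, which restrains proliferation when overexpressed, had 785 against 538 CPM in LNCaP (log2 ratio 0.55, 0.51 to 0.58) and 503 against 406 CPM in LNCaP-ENZ48 (0.31, 0.27 to 0.34). In RES-A it had 62.9 against 58.7 CPM (0.10, −0.01 to 0.21). In RES-B the order was turned, at 71.1 against 85.2 CPM (−0.26, −0.37 to −0.16). CDKN1B, the cyclin-dependent kinase inhibitor p27, was no higher in the least cycling cells of any library, with 29.3 against 36.7 CPM in LNCaP, 31.2 against 33.5 in LNCaP-ENZ48 cells, 18.4 against 21.5 in RES-A cells and 28.0 against 30.3 in RES-B. By bin of the score, CDKN1B was highest in bin 4, the most cycling cells, of every library (53.2, 40.9, 27.1 and 38.8 CPM). CDKN1B did not mark these cells, nor did BTG1 in RES-B, and the cells are therefore called here by the rule that chose them.

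The least cycling cells kept the features of luminal prostate cells. Of 15 luminal epithelium genes, 13 or 14 had at least 25 CPM in each library, and their median log2 ratio of the least cycling cells to the rest lay between −0.03 and 0.09. Of the basal, neuroendocrine, fibroblast and immune or endothelial markers, 0 genes reached 25 CPM in any library. Summed over each list, the least cycling cells showed 0 to 0.460 CPM for 4 basal markers, 3.003 to 3.91 CPM for 6 neuroendocrine markers, 1.41 to 3.30 CPM for 5 fibroblast markers and 0.433 to 1.90 CPM for 6 immune or endothelial markers.

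Genes were then compared between the least cycling cells and the rest of the same library. The rule itself used this contrast, so what follows is a description, with no test. A gene was counted when its log2 CPM ratio was at least 0.3 in size, its interval lay on 1 side of 0 and its mean level was at least 25 CPM. In LNCaP, 76 of 4217 genes were higher (1.8%) and 494 lower (11.7%). In LNCaP-ENZ48, 58 of 4027 were higher (1.44%) and 251 lower (6.23%). In RES-A, 127 of 4196 were higher (3.03%) and 331 lower (7.89%), and in RES-B, 96 of 4462 were higher (2.15%) and 309 lower (6.93%).

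The split between higher and lower depended on the scaling. The median log2 ratio of all genes was −0.06 in LNCaP, −0.04 in LNCaP-ENZ48 cells, −0.01 in RES-A cells and −0.01 in RES-B. With DESeq2 size factors in place of total UMIs, the numbers higher and lower were 229 and 277 in LNCaP, 124 and 165 in LNCaP-ENZ48 cells, 180 and 263 in RES-A, and 167 and 222 in RES-B. With TMM factors they were 148 and 340 in LNCaP, 59 and 259 in LNCaP-ENZ48 cells, 105 and 338 in RES-A, and 87 and 297 in RES-B. TMM thus moved the split mainly in LNCaP.

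Across the 3527 genes with at least 25 CPM in every library, 9 were higher in all 4 (0.255%) and 141 were lower in all 4 (4%). By sign alone, 627 were higher and 1169 lower in all 4. Across 3517 of these genes outside the score, the log2 ratios of any pair of libraries had a Pearson correlation of 0.89 to 0.92. After genes of the cell cycle lists and genes under −0.5 in any library were set aside, it was 0.57 to 0.68 over 3347 genes. These are correlations across genes, which are not independent, and all 4 libraries share the score.

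The genes lower in all 4 libraries were those of mitosis, DNA replication and chromatin. Among the G2/M genes, 22 of 22 measured in LNCaP, 17 of 17 in LNCaP-ENZ48 cells, 20 of 20 in RES-A cells and 21 of 21 in RES-B were lower, with median log2 ratios of −2.69, −1.71, −1.91 and −2.04. HMMR, whose CHR letters are printed above, had 1.30 CPM in the least cycling cells and 112 CPM in the rest of LNCaP. In LNCaP-ENZ48 it had 1.36 against 71.3 CPM, in RES-A 2.32 against 138 CPM and in RES-B 2.25 against 93.4 CPM. HMMR thus stood at a clear level in the rest and at a few CPM in the least cycling cells of every library, with log2 ratios of −6.42, −5.71, −5.90 and −5.37.

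CDC20, the second of the promoters shown, had log2 ratios of −6.01, −5.51, −5.05 and −4.72, and CCNB2 −3.86, −3.79, −3.86 and −3.30. SMC4 had −3.14, −2.15, −2.56 and −2.16. None of these 3 genes was part of the score, and all stood lower in every library. NUSAP1, a spindle protein, had −4.80, −4.82, −4.65 and −4.57, while the survivin gene BIRC5 had −3.65, −3.01, −3.53 and −3.43.

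Among genes of at least 50 CPM in every library, the 10 with the lowest shared ratios were CDKN3, PTTG1, CKS1B, PCLAF, UBE2S, TUBB4B, UBE2T, ARL6IP1, HIST1H4C and TUBB. CDKN3, a phosphatase that acts on cyclin-dependent kinases, had 6.05 against 147 CPM in LNCaP, 7.92 against 103 CPM in LNCaP-ENZ48 cells, 8.01 against 129 CPM in RES-A cells and 15.8 against 128 CPM in RES-B. Its log2 ratios of −4.60 (−4.94 to −4.28), −3.70 (−3.97 to −3.45), −4.01 (−4.29 to −3.74) and −3.02 (−3.23 to −2.82) were smallest in size in RES-B. PTTG1, which encodes securin, had log2 ratios of −3.27, −2.94, −3.31 and −2.97. CKS1B had 30.7, 22.7, 26.1 and 33.8 CPM in the least cycling cells against 146, 98.6, 106 and 139 CPM in the rest, and its 4 log2 ratios lay within −2.25 and −2.03.

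Genes of S phase were lower too, though fewer passed the level. All 6, 5, 8 and 7 measured S phase genes outside the score were lower in the 4 libraries, with medians of −1.21, −0.85, −1.11 and −0.88. ATAD2, a chromatin ATPase, had log2 ratios of −2.71, −2.51, −2.82 and −2.73. SLBP, which binds the stem-loop of histone mRNA, had only −0.64, −0.53, −0.63 and −0.55.

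Histone genes went both ways. HIST1H4C, a replication-dependent histone H4 gene, had 332 against 1111 CPM in LNCaP, 256 against 602 CPM in LNCaP-ENZ48 cells, 175 against 822 CPM in RES-A cells and 239 against 932 CPM in RES-B. It was lower in each, by log2 ratios of −1.74, −1.23, −2.23 and −1.963. HIST1H2AC, an H2A gene of the same list, was higher in LNCaP (0.55), LNCaP-ENZ48 (0.64) and RES-B (0.54), and in RES-A its ratio of 0.78 was not counted because its level was under 25 CPM. HIST3H2A, another H2A gene, was among the 9 genes higher in all 4 libraries, with log2 ratios of 0.44, 0.40, 0.87 and 0.53. Transcripts of replication-dependent histones mostly end in a stem-loop without a poly(A) tail, so a poly(A)-primed library counts them incompletely.

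Chromatin assembly genes were lower in 16 of 19 measured in LNCaP, 16 of 19 in LNCaP-ENZ48 cells, 20 of 22 in RES-A cells and 16 of 20 in RES-B, with medians of −0.95, −0.70, −0.92 and −0.86. H2AFZ, the variant histone H2A.Z, had 713 against 1519 CPM in LNCaP and log2 ratios of −1.092, −1.004, −1.02 and −1.10. NAP1L1, a histone chaperone of the same list, had 0.08, −0.0038, −0.05 and −0.08. Of the 19 genes of the list measured in all 4 libraries, 18 were lower in all 4 by sign and 15 passed in all 4.

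**Figure D2:**
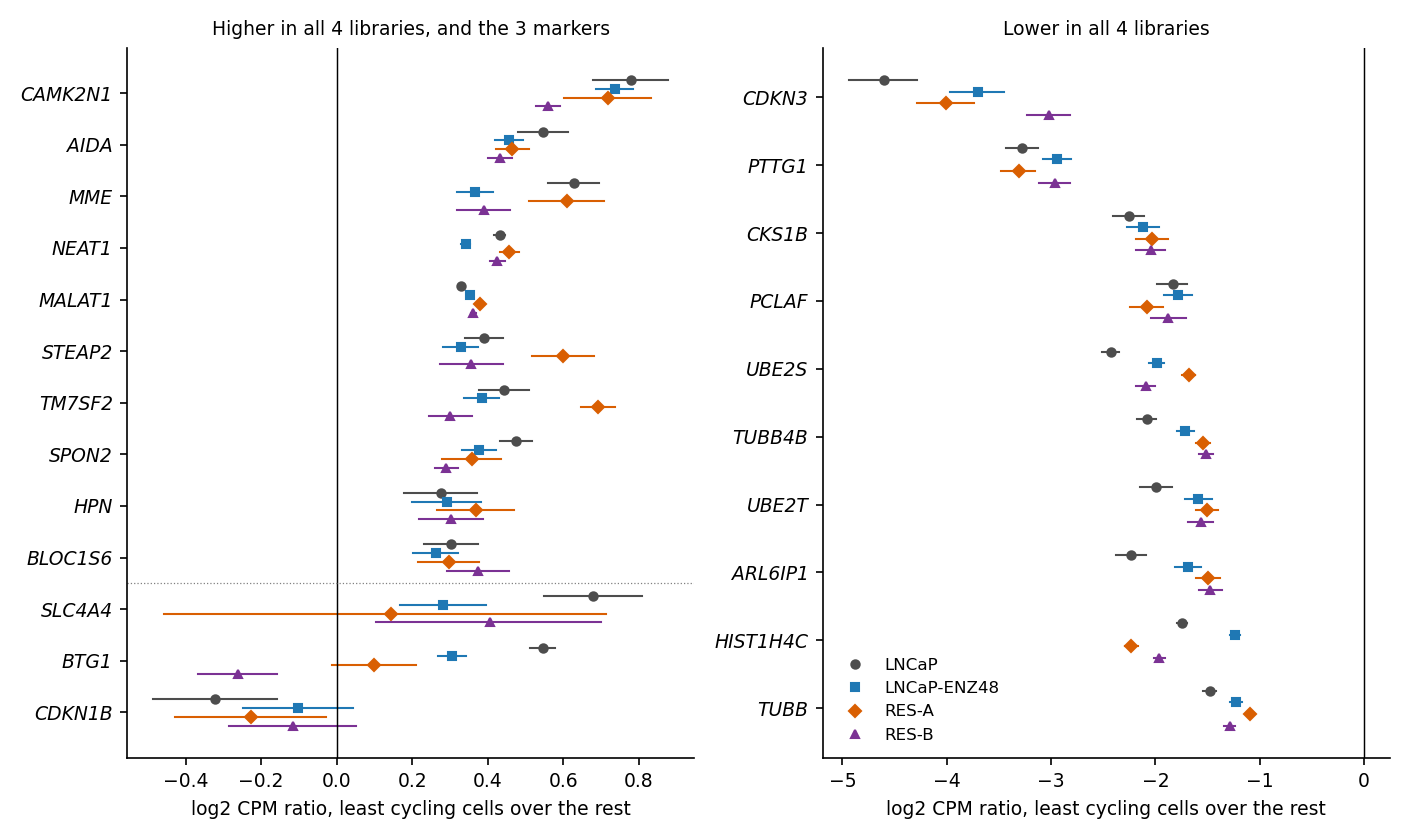
log2 CPM ratio of the least cycling cells to the rest (x axis) for the 10 highest (left) and 10 lowest (right) ratios shared by all 4 libraries among genes of at least 50 CPM in each, and for the 3 proposed markers (under the dotted line), 1 symbol per library, with 95% intervals for counting error. CAMK2N1 lies at 0.56 to 0.78, BTG1 lies between 0.55 in LNCaP and −0.26 in RES-B, and CDKN3 lies at −4.60 to −3.02.

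The 9 genes higher in all 4 libraries were CAMK2N1, AIDA, MME, NEAT1, MALAT1, STEAP2, TM7SF2, SLC30A4 and HIST3H2A. Their ratios were small beside those of the mitotic genes, with no log2 ratio above 0.87. CAMK2N1, which encodes an inhibitor of calcium/calmodulin-dependent kinase II, had 96.0 against 55.9 CPM in LNCaP, 317 against 190 CPM in LNCaP-ENZ48 cells, 66.4 against 40.3 CPM in RES-A cells and 915 against 621 CPM in RES-B. The log2 ratios were 0.78 (0.68 to 0.88), 0.74 (0.69 to 0.79), 0.72 (0.60 to 0.83) and 0.56 (0.53 to 0.59), so the gene was higher in each library although its level differed more than 10-fold between libraries.

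CAMK2N1 was carried by a minority of cells outside RES-B. At 5000 UMIs it was found in 11.9% of the least cycling cells of LNCaP against 8.71% of the rest, in 29.9 against 22.5% in LNCaP-ENZ48 cells, in 10.5 against 8.06% in RES-A cells and in 63.2 against 57.8% in RES-B. In LNCaP, 101 of the 504 least cycling cells held its 1253 UMIs, and 1 cell held 99 of them. Without the highest cell on either side, the log2 ratio in LNCaP was 0.74.

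AIDA, which encodes an axin-interacting protein, had 203 against 139 CPM in LNCaP, 523 against 382 CPM in LNCaP-ENZ48 cells, 419 against 303 CPM in RES-A cells and 819 against 607 CPM in RES-B. Its log2 ratios of 0.55, 0.46, 0.47 and 0.43 lay close together. MME, the cell surface peptidase neprilysin, had 194 against 126, 306 against 237, 85.6 against 56.1 and 172 against 131 CPM, or log2 ratios of 0.63, 0.37, 0.61 and 0.39. STEAP2, a metalloreductase found in prostate epithelium, had log2 ratios of 0.39, 0.33, 0.60 and 0.36. The zinc transporter gene SLC30A4 had 0.68, 0.43, 0.33 and 0.59.

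TM7SF2 encodes a sterol reductase of the late cholesterol pathway. It had 199 against 147 CPM in LNCaP, 334 against 256 CPM in LNCaP-ENZ48 cells, 423 against 261 CPM in RES-A cells and 262 against 212 CPM in RES-B, and its highest log2 ratio was in RES-A (0.69, 0.65 to 0.74). SPON2, a secreted matrix protein, HPN, the serine protease hepsin, and BLOC1S6, a subunit of a complex in the making of lysosome-related organelles, were named by the same rule but fell short of 0.3 in at least 1 library each. Their log2 ratios were 0.47, 0.38, 0.36 and 0.29 for SPON2, 0.28, 0.29, 0.37 and 0.30 for HPN, and 0.30, 0.26, 0.30 and 0.37 for BLOC1S6.

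The other 2 were the nuclear RNAs MALAT1, which gathers in nuclear speckles, and NEAT1, the scaffold of paraspeckles. NEAT1 had 3726 against 2762 CPM in LNCaP, 4296 against 3390 CPM in LNCaP-ENZ48 cells, 1336 against 973 CPM in RES-A cells and 1985 against 1478 CPM in RES-B. MALAT1 had 36574 against 29118, 52375 against 40973, 21029 against 16165 and 24084 against 18735 CPM, with log2 ratios of 0.33, 0.35, 0.38 and 0.36. When the 25% of cells with the highest MALAT1 share were left out of each library, 7 of the 9 genes still passed in all 4 libraries, all but MALAT1 and NEAT1.

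The genes higher in these cells included neighbours on the genome. MALAT1 (chr11:65497640-65508073), NEAT1 (chr11:65422774-65445540) and TM7SF2 (chr11:65111845-65116384) lie within 1 region of chromosome 11, on the GRCh38 coordinates of GENCODE 44. SLC30A4 (chr15:45479606-45522755) and BLOC1S6 (chr15:45587214-45615945) lie near each other on chromosome 15. Of the genes beside AIDA (chr1:222668013-222713210), looked up after its values were seen, MIA3 (chr1:222618097-222668007) had log2 ratios of 0.19, 0.24, 0.43 and 0.45 and BROX (chr1:222712553-222735196) had 0.23, 0.19, 0.44 and 0.46. STEAP1 (chr7:90154456-90164829), beside STEAP2 (chr7:90167590-90238137), had 0.18, 0.19, 0.51 and 0.28. All 3 of these neighbours were higher in 4 of 4 libraries by sign, with smaller ratios in LNCaP and LNCaP-ENZ48. Among all genes with at least 25 CPM in every library, 627 of 3527 were higher in all 4 by sign. Whether the place on the genome had a part was not tested.

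Each bin of the score was then read separately, to see whether a gene changed at the limit of the least cycling cells or along the whole range. CAMK2N1 had 96.0, 102, 44.5 and 25.8 CPM from bin 1 to bin 4 of LNCaP, 317, 261, 206 and 107 in LNCaP-ENZ48 cells, 66.4, 65.1, 40.6 and 18.3 in RES-A cells and 915, 824, 722 and 368 in RES-B. AIDA had 203, 194, 152 and 80.6 CPM in LNCaP and 819, 804, 700 and 367 in RES-B. Both genes were lowest in bin 4 of these libraries. Between bins 1 and 2, CAMK2N1 was lower in bin 2 of LNCaP-ENZ48 and of RES-B, while its intervals overlapped in LNCaP and in RES-A.

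NEAT1 had 3726, 3384, 3083 and 1962 CPM in LNCaP and 1336, 1193, 971 and 781 CPM in RES-A, lower in each next bin. In RES-B it had 1985, 1782, 1805 and 952 CPM, close to level between bins 2 and 3. Against bin 2 alone, 0 genes were higher and 3 lower in all 4 libraries by the same criteria, and 6 of the 9 genes kept a positive sign in every library. The higher levels in the least cycling cells thus stood mostly against bins 3 and 4.

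**Figure D3:**
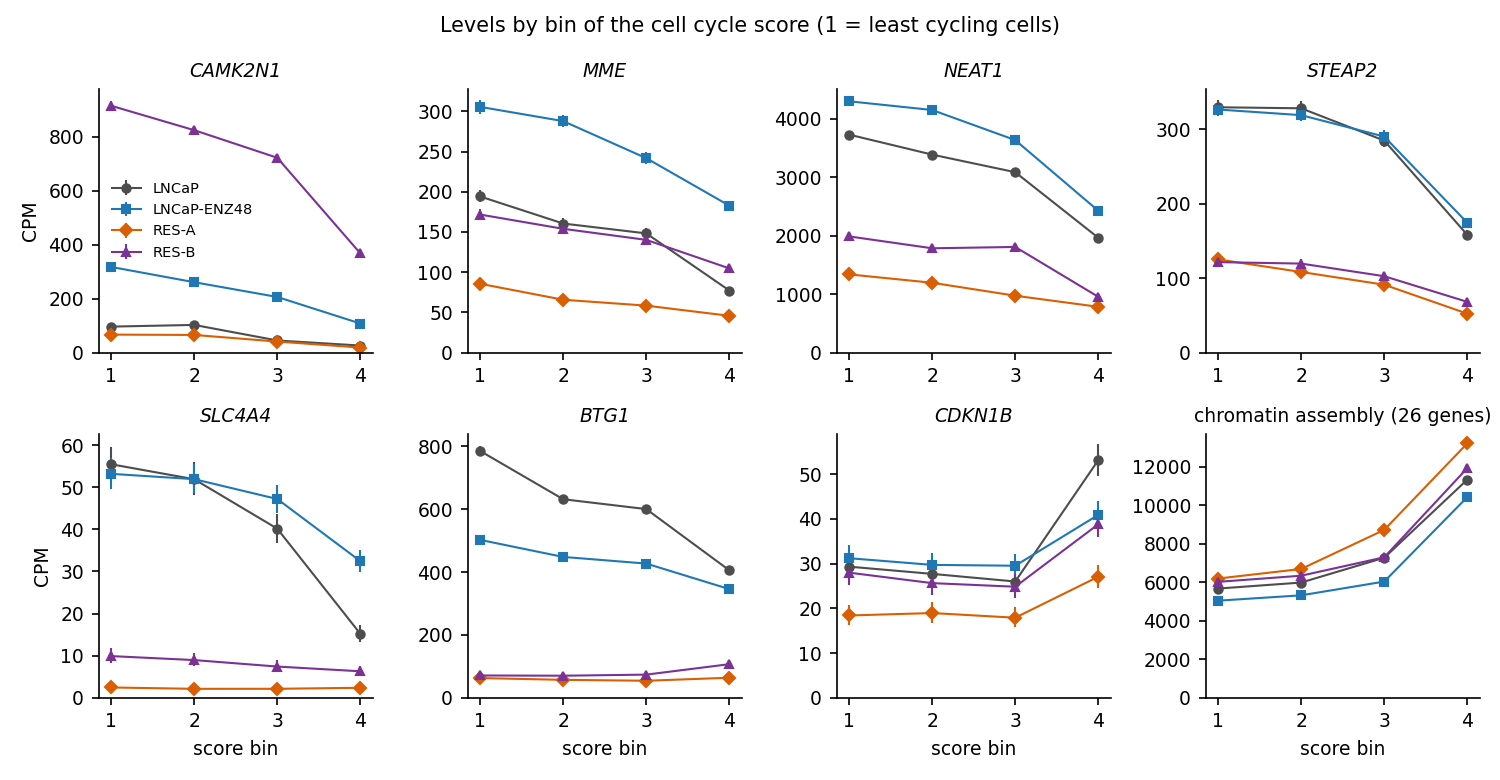
Level (CPM of the summed cells, with 95% Poisson intervals) of 7 genes and of the summed chromatin assembly genes in the 4 bins of the score, from 1 (least cycling) to 4, 1 line per library and a linear axis from 0. CAMK2N1, MME, NEAT1 and STEAP2 are lowest in bin 4 of every library, while CDKN1B is highest there (53.2 CPM in LNCaP against 29.3 in bin 1).

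The 3 highest ratios within each library, among genes of at least 50 CPM, included genes outside these 9 in all but RES-A, where they were HIST3H2A, CAMK2N1 and TM7SF2. In LNCaP, NETO1, an auxiliary subunit of glutamate receptors, had a log2 ratio of 0.76 (0.69 to 0.84), against 0.31, 0.26 and 0.32 in the others. In LNCaP-ENZ48, S100P, a calcium-binding protein, had 77.9 against 46.6 CPM (0.74, 0.64 to 0.84), where LNCaP had 74.2 against 84.7 CPM (−0.19, −0.29 to −0.09). MT1G, a metallothionein, had 96.7 against 64.6 CPM in LNCaP-ENZ48 (0.58) and 50.9 against 55.6 CPM in LNCaP (−0.13). The sign in LNCaP was not stable for either gene, since over the alternative settings S100P had −0.56 to 0.91 and MT1G −0.70 to 0.71 there. In RES-B, the highest were DENND1B (0.67), a regulator of vesicle traffic, NDRG1 (0.62), a gene of hypoxia and differentiation, and LTN1 (0.58), a ubiquitin ligase of ribosome quality control. NDRG1 had 0.30 in LNCaP, 0.25 in LNCaP-ENZ48 and 0.59 in RES-A (13.5 against 8.98 CPM), so its ratio in RES-B was near that in RES-A. In RES-B it was −0.083 without the 25% of cells highest in MALAT1. LTN1 had 0.18 or less in the other 3 libraries.

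Gene lists chosen for this tissue and treatment were counted in the same way, beside the shares of all genes given above. Of the growth restraint list, 1 of 16 measured was higher in LNCaP (1.8% of all genes), 2 of 18 in LNCaP-ENZ48 (1.44% of all), 4 of 15 in RES-A (3.03% of all) and 1 of 18 in RES-B (2.15% of all), with medians of 0.02, 0.05, 0.20 and 0.08, and 0 were lower. The 4 in RES-A were BTG2 (0.34), TXNIP (0.38), SESN3 (0.35) and MXD4 (0.30), where TXNIP binds thioredoxin and MXD4 antagonises MYC.

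Inhibitors of cyclin-dependent kinases did not pass the criteria for a higher gene. CDKN1A, the p21 gene, had 53.2 against 61.7 CPM in LNCaP, 46.6 against 43.6 in LNCaP-ENZ48 cells, 58.6 against 54.7 in RES-A cells and 22.4 against 18.5 in RES-B. CDKN2A, the p16 gene, was lower in LNCaP (−0.31), RES-A (−0.43) and RES-B (−0.31), and had −0.29 in LNCaP-ENZ48. Of the inhibitors, 0 were higher in any library. CCND1, which encodes the G1 cyclin D1, had log2 ratios of 0.27, −0.04, 0.24 and 0.14.

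Androgen-induced genes were higher in the least cycling cells of LNCaP, 9 of 14 measured (1.8% of all genes) with a median log2 ratio of 0.36, and 0 were lower. KLK3, the PSA gene, had 945 against 668 CPM in LNCaP (0.50, 0.47 to 0.53), and KLK2 had 438 against 286 CPM (0.62). From bin 1 to bin 4 of the score in LNCaP, KLK3 had 945, 993, 688 and 372 CPM. KLK2 had 438, 342, 345 and 188 CPM. KLK3 was thus higher in bin 2 than in the least cycling cells, while KLK2 was highest in bin 1. KLK2 and KLK3 are neighbouring paralogs of similar sequence, so reads may be split between them. In LNCaP-ENZ48, where KLK3 was 116.1 against 86.8 CPM (0.42, 0.34 to 0.50), 3 of 9 were higher (1.44% of all genes, median 0.22). In RES-A, 1 of 3 was higher (3.03% of all genes, median 0.14), and in RES-B 2 of 7 (2.15% of all, median 0.25), with KLK3 at 34.6 against 29.1 CPM. TMPRSS2, an androgen-induced protease, had log2 ratios of 0.57 in LNCaP and 0.08 in RES-B.

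Genes of the cholesterol synthesis list went the other way, with 5 of 10 measured lower in LNCaP (11.7% of all genes) and 5 of 9 in LNCaP-ENZ48 cells (6.23% of all). In RES-A cells 4 of 9 were lower (7.89% of all) and in RES-B 2 of 11 (6.93% of all), and 0 of the list were higher in any library. EBP, a sterol isomerase, had 41.8 against 65.2 CPM in LNCaP, 33.0 against 56.9 in LNCaP-ENZ48 cells, 39.2 against 70.7 in RES-A cells and 52.8 against 71.2 in RES-B. EBP was lower in all 4 libraries, opposite to TM7SF2 of the same pathway. TM7SF2 was higher in all 4 but is not in this list, so the count of 0 higher leaves it out.

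Amino acid stress genes differed between libraries. In LNCaP 8 of 18 were lower (11.7% of all genes, median −0.26) and in RES-B 6 of 19 (6.93% of all, −0.24), with 1 higher. In LNCaP-ENZ48 0 were lower and 1 higher (0.04), and in RES-A 0 were lower and 1 higher (−0.01). TRIB3, a pseudokinase of the stress response, had 89.9 against 124 CPM in LNCaP, 94.4 against 73.4 in LNCaP-ENZ48 cells, 51.5 against 57.1 in RES-A cells and 80.8 against 100.4 in RES-B. It was higher in LNCaP-ENZ48 (0.36) and lower in LNCaP (−0.46) and RES-B (−0.31).

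MYC targets were slightly lower, 29 of 180, 29 of 180, 33 of 184 and 21 of 182 in the 4 libraries, with 0 higher. Their medians were −0.10, −0.10, −0.11 and −0.08. Of all genes, 11.7, 6.23, 7.89 and 6.93% were lower, with medians of −0.06, −0.04, −0.01 and −0.01. DESeq2 size factors raised the median of all genes by 0.11, 0.08, 0.04 and 0.05, so the small MYC target medians leaned on the scaling. The 17 MYC targets that were lower in all 4 libraries are a set that holds cell cycle genes as well. Transcripts of 82 cytosolic ribosomal proteins and of 13 mitochondrial respiratory genes gave 0 genes in either direction in any library, with medians between −0.01 and 0.09. By sign alone, 57 of the 82 ribosomal protein genes were higher in all 4 libraries and 2 were lower. Among all 3527 genes, 627 were higher and 1169 lower. Of the 13 respiratory genes, 3 were higher in all 4 by sign and 0 lower.

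**Figure D4:**
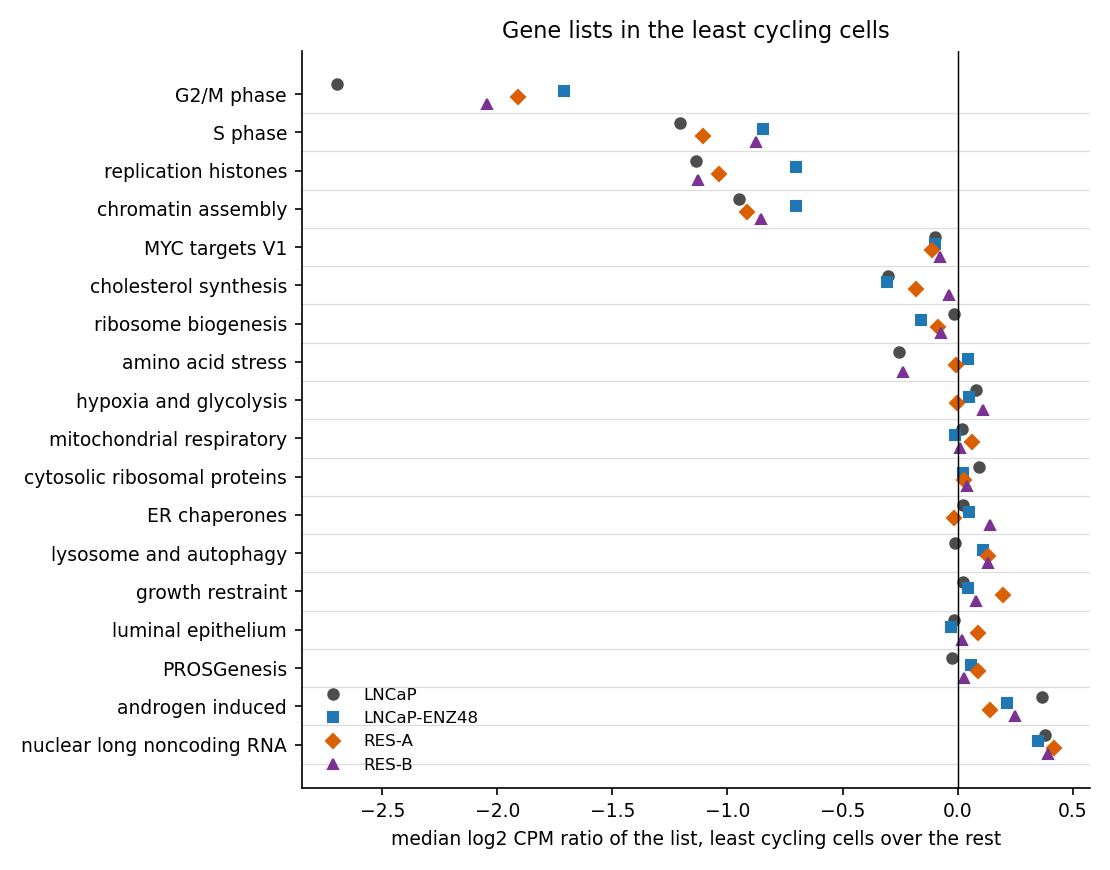
Median log2 CPM ratio of the least cycling cells to the rest for 18 gene lists, 1 symbol per library, over the list's genes with at least 25 CPM, without error bars. G2/M genes lie between −2.69 and −1.71 and S phase genes between −1.21 and −0.85, while androgen-induced genes lie between 0.14 and 0.36 and most other lists lie near 0.

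The least cycling cells were next compared between libraries, to show how the treated and resistant lines differ when the most proliferative cells are set aside. A gene was counted at a log2 ratio of at least 1 in size. Against LNCaP, 12 of 3994 genes were higher in LNCaP-ENZ48 (0.3%) and 35 lower (0.876%). In RES-A, 176 of 4134 were higher (4.26%) and 151 lower (3.65%). In RES-B, 253 of 4255 were higher (5.95%) and 119 lower (2.8%), and RES-B against RES-A gave 155 of 4325 higher (3.58%) and 77 lower (1.78%). The 3 comparisons with LNCaP share its 504 cells.

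These counts leaned on the scaling as well. With TMM factors, RES-A gave 134 higher and 189 lower and RES-B 176 and 161 against LNCaP, and with DESeq2 size factors 144 and 183, and 177 and 165. The median log2 ratio of all genes was 0.10 for RES-A and 0.17 for RES-B against LNCaP with total UMIs, and TMM moved it by −0.10 and −0.16.

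Androgen-induced genes were lower in the least cycling cells of the treated parental line. In LNCaP-ENZ48, 7 of 12 were lower than in LNCaP (0.876% of all genes), with a median of −1.65 beside −0.02 for all genes. KLK3 went from 945 to 116.1 CPM (−3.02, −3.10 to −2.95), and KLK2 from 438 to 36.0 CPM (−3.60). In the rest of these libraries both genes had ratios of about the same size, −2.94 and −3.63. KCNN2, a potassium channel (−2.49), and ZBTB16, a zinc finger repressor (−2.47), were also among the 5 lowest.

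The 5 highest in LNCaP-ENZ48 were CAMK2N1 (1.73, 1.64 to 1.82), ATP1B1 (1.65), NUCB2 (1.65), SNHG25 (1.62) and DDC (1.504). ATP1B1, a subunit of the sodium pump, had 401 CPM in the least cycling cells of LNCaP and 1261 CPM in those of LNCaP-ENZ48. CAMK2N1 was thus higher both in the least cycling cells within each library and, among them, in the treated library. Its ratio between libraries in the rest was 1.77, so the cells of higher score differed by about as much.

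In RES-A, 9 of 11 androgen-induced genes were lower than in LNCaP (3.65% of all genes, median −3.56). KLK3 was left with 1 UMI in the 1157 least cycling cells, against 12340 UMIs in LNCaP, a log2 ratio of −13.71 with an interval from −19.02 to −11.24. KLK2 had 3 UMIs (−11.02, −13.30 to −9.47). PEG3, an imprinted gene, had 0 UMIs in RES-A cells and 5058 in LNCaP, at least 1837-fold lower by a floor of 3 UMIs per library. H2AFJ, a histone variant, had 0 UMIs against 4403, at least 1599-fold lower, and GULP1, an adaptor of engulfment, had 1 UMI (−11.23, −16.54 to −8.76).

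The 5 genes with the highest ratios in RES-A were at 0 or low in LNCaP. IGFBP5, a secreted binding protein of insulin-like growth factors, had 0 UMIs in the least cycling cells of LNCaP and 310 CPM in RES-A, at least 1349-fold higher. C2orf54 and NR2F1, an orphan nuclear receptor, had 0 UMIs in LNCaP and were at least 326-fold and 221-fold higher. VIM, the intermediate filament vimentin, had 1.99 CPM in LNCaP and 211 CPM in RES-A (6.72, 6.17 to 7.34), and CCDC80, a matrix protein, 0.460 and 68.3 CPM (7.21, 6.09 to 8.66).

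RES-B kept more of the androgen-induced genes than RES-A. Against LNCaP 8 of 12 were lower (2.8% of all genes, median −1.46), and against RES-A 3 of 6 were higher (3.58% of all) and 0 lower (median 1.33). KLK3 had 34.6 CPM in the least cycling cells of RES-B. KLK4, another kallikrein, had 75.0 CPM against 0.351 in RES-A (7.74, 6.51 to 9.36). The genes gained against LNCaP were IGFBP5 (0 UMIs in LNCaP, at least 472-fold higher), TSPAN8, a tetraspanin (0 UMIs, at least 290-fold), VAV3, a guanine nucleotide exchange factor (7.15), the ligand WNT5A (5.40) and TOX3 (5.40).

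Those lost in RES-B were PRAC1 (0 UMIs against 10949 in LNCaP, at least 3724-fold lower), H2AFJ (0 UMIs, at least 1498-fold), ETV1, an ETS factor (0 UMIs, at least 438-fold), SLC22A3, an organic cation transporter (0 UMIs, at least 305-fold), and MT1G, with 1 UMI (−9.41, −14.71 to −6.92). Between the 2 resistant lines, HOXA10, a homeobox factor, had 62.5 CPM in RES-B and 2 UMIs in RES-A (8.80, 6.94 to 11.84). PRUNE2 (6.34), SYT4 (6.10), a synaptotagmin, and TSPAN8 (5.98) were also higher in RES-B. PRAC1 and CBLN2 had 0 UMIs in RES-B and were at least 1844-fold and 370-fold lower than in RES-A, and EFNA5, an ephrin ligand (−6.49), C2orf54 (−6.38) and ASPH (−4.43) were lower.

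By list, endoplasmic reticulum chaperones were higher in the least cycling cells of RES-B, 8 of 16 against LNCaP (median 1.00) and 10 of 16 against RES-A (1.19). Of all genes, 5.95 and 3.58% were higher in these 2 comparisons, with medians of 0.17 and 0.07. HSPA5, the chaperone BiP, had 280 CPM in LNCaP, 366 in LNCaP-ENZ48 cells, 313 in RES-A cells and 1079 in RES-B. Metallothioneins were lower in RES-A than in LNCaP (3 of 3 measured, median −2.58, beside 3.65% and 0.10 for all genes). RES-B stood above RES-A (3 of 3, median 3.17, beside 3.58% and 0.07 for all genes). MT2A had 970, 1040, 211 and 1901 CPM in the 4 libraries. Some of these sets were small, and each median rests on 1 library a group.

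**Figure D5:**
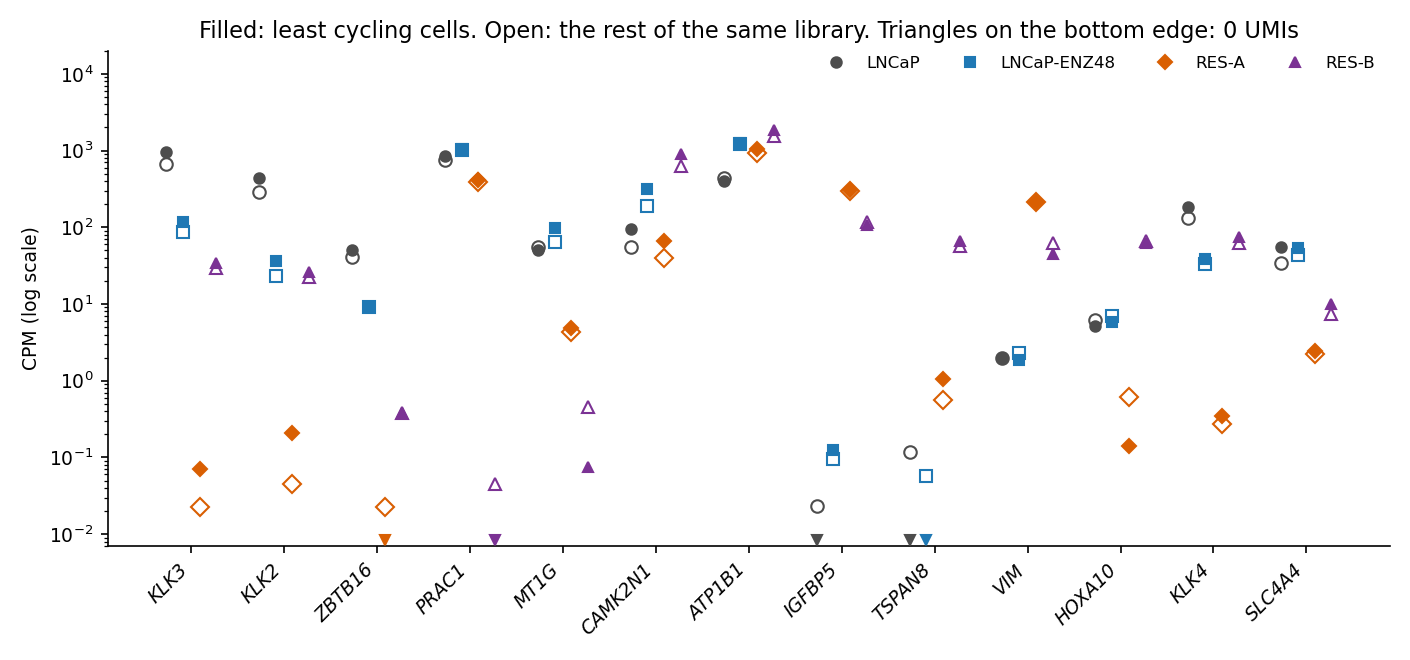
Level (CPM, log axis) of 13 genes in the 4 libraries, filled symbols for the least cycling cells and open symbols for the rest of the same library, with triangles on the bottom edge for 0 UMIs. KLK3 runs from 945 CPM in LNCaP to 0.0703 CPM in RES-A among the least cycling cells, and filled and open symbols of a library lie close together beside the distances between libraries.

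Whether a library difference was larger or smaller in the least cycling cells than in the rest was asked by subtracting the log2 ratio in the rest from that in the least cycling cells. A gene was counted at a difference of at least 0.5 with its interval on 1 side of 0. Relative to untreated cells, LNCaP-ENZ48 gave 36 higher (0.875%) and 1 lower (0.0243%) of 4115 genes. RES-A gave 69 higher (1.63%) and 14 lower (0.332%) of 4222, RES-B gave 60 higher (1.38%) and 10 lower (0.229%) of 4360, and RES-B against RES-A gave 16 higher (0.365%) and 11 lower (0.251%) of 4384.

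Cell cycle genes led several of these. CDK1, the mitotic kinase, had 5.59 CPM in the least cycling cells of LNCaP, 6.56 in LNCaP-ENZ48 cells, 77.5 in RES-A cells and 26.8 in RES-B, while the rest had 98.8, 74.0, 269 and 125 CPM. Its library difference was therefore larger in the least cycling cells, by 2.35 in RES-A (2.0037 to 2.69) and 1.93 in RES-B (1.56 to 2.29), though it was −0.17 in RES-A when bin 2 stood in for the rest. In RES-B, CDKN3 (1.58) and TOP2A (1.44), itself a score gene, were next, and TOP2A was turned to −0.44 when TUBA1B, STMN1, HMGB2 and CKS2 were left out of the score. In LNCaP-ENZ48, SMC4 led with 0.99 (0.73 to 1.25). The limit of the lowest 25% lay at a higher score in RES-A cells and RES-B than in LNCaP (630 and 451 against 277 CPM), and its part in these differences was not tested.

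Other genes did not belong to the cell cycle. In LNCaP-ENZ48, S100P (0.93, 0.79 to 1.07) and DDIT3 (0.92, 0.80 to 1.04), a transcription factor of the stress response, were higher relative to the rest. The S100P difference was turned to −0.34 with the shorter score, so its direction rested on the choice of score genes. In RES-A, UGT2B11, which conjugates steroids, had a difference of 1.67 (0.95 to 2.40), although only 17 UMIs stood behind it in the least cycling cells of LNCaP, and ADD3, a membrane skeleton protein, had 1.30. The lowest in RES-A were C19orf48 (−0.68), PLGRKT (−0.63) and DEGS1 (−0.54).

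In RES-B, BTG1 had −0.81 (−0.92 to −0.70), since it was higher in the least cycling cells of LNCaP and lower in those of RES-B. PLA2G2A, a secreted phospholipase, had −1.40, but 1 cell held 45 of its 80 UMIs in the least cycling cells of LNCaP (56.3%), and the difference was 0.63 to 2.45 under 4 other settings. TMPRSS2 had −0.48, short of the limit. Between RES-B and RES-A, GNAI1 (1.14), CDKN3 (0.99) and UGT2B11 (0.78) were highest, and CCNB1 (−0.69), SAT1 (−0.65) and TUBA1A (−0.62, but 0.14 with the shorter score) lowest. In LNCaP-ENZ48 the lowest by the naming rule, CENPF (−0.50, −1.19 to 0.19), NETO1 (−0.45) and SOX4 (−0.45), were not counted. CCNB1 and CENPF are themselves score genes, so the rule that chose the cells used their values.

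Among themselves, the least cycling cells differed most in a few abundant transcripts. At 5000 UMIs a cell, the variance over the mean (Fano factor, 1 for counting noise alone) of MALAT1 was 44.5 in LNCaP, 31.8 in LNCaP-ENZ48 cells, 15.9 in RES-A cells and 48.1 in RES-B. FTH1, the ferritin heavy chain, had 26.5, 43.3, 32.8 and 29.5 in the same order, and GDF15, a stress cytokine, 16.6 in LNCaP and 18.8 in LNCaP-ENZ48. The rest of LNCaP had 34.9 for MALAT1, 30.5 for FTH1 and 22.2 for GDF15, so these genes varied in cells of higher score as well.

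ISG15, an interferon-induced ubiquitin-like protein, stood out in RES-A with a Fano factor of 17.9 in the least cycling cells against 1.43 in the rest. 1 cell held 212 of its 2008 UMIs (10.6%). Without the highest cell on either side, the log2 ratio of ISG15 in RES-A was 0.23, below the 0.3 used here, where it was 0.37 with all cells. MT2A in LNCaP had a Fano factor of 14.5, and 1 cell held 726 of its 12660 UMIs.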

How the data were processed

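RNA of sorted living cells was captured with the 10x Genomics 3′ v3 chemistry. Per the labels, the authors counted UMIs with Cell Ranger 3.0.2 on GRCh38 (hg38), and the deposited matrices hold these UMI counts per gene and cell barcode, not normalized, for 33538 genes. Filters on cells and the score are those given above. No doublet caller was run, and leaving out the 5% of cells with the most UMIs was tried as an alternative. UMIs were summed over the least cycling cells and over the rest of a library and scaled to CPM by their totals. Log2 ratios carry exact conditional binomial (Clopper-Pearson) 95% intervals and levels exact Poisson intervals. Differences of log2 ratios carry approximate (normal) 95% intervals from the Poisson errors of the 4 sums, and also required at least 10 UMIs in each of these sums. With 1 library a group there was no test and no p-value. The thinned sums, the size factors of edgeR 4.0.16 (TMM) and DESeq2 1.42.0, and the other alternatives are described with their effect in the closing section, and scripts were tested on simulated data (Python 3.11.15, R 4.3.3).

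Named genes had at least 50 CPM. They had the 10 highest and 10 lowest ratios shared by all 4 libraries, or the 3 highest and lowest in each library. The 5 highest and lowest in each comparison of libraries and the 3 highest and lowest differences were named too. Mitochondrial and ribosomal genes were left out of all of these. Score genes were left out only of the ratios of the least cycling cells to the rest of a library. The cells and the gene lists were chosen with earlier results of these data known. Promoters came from RefSeq (GRCh38.p14) by gene symbol and coordinates from GENCODE 44, which held 612 of the gene IDs looked up. Fold limits, the minimum of 25 CPM and the floor of 3 UMIs were set by hand. The authors' own clusters and comparisons were not used. The results of some genes that the naming rule or the lists hold are not reported here.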

Additional observations from a re-analysis of the deposited data

Results flagged for a closer look

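Some genes were higher in the least cycling cells of one library and lower in those of another, 6 in all by the criteria of the report. Of the genes named, DDIT3, which encodes a transcription factor of the stress response, had a log2 ratio of the least cycling cells to the rest of 0.53 in LNCaP-ENZ48 and −0.39 in LNCaP. Its levels were 112 against 77.4 CPM in LNCaP-ENZ48 and 89.9 against 118 CPM in LNCaP. ASPH, an aspartyl hydroxylase, had a log2 ratio of 0.35 in RES-B and −0.52 in LNCaP, with 29.4 against 23.1 CPM and 37.8 against 54.0 CPM. Each library is 1 sample, and the difference between libraries was not tested.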

How the results depend on the processing

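No paired analysis was possible because each group has 1 library and the labels carry no replicate numbers, and no replicate could be left out within a group. Of the 9 genes higher in all 4 libraries, 4 remained with the lowest 10% of cells, 5 with a minimum of 100 CPM and 4 with the LNCaP score limit set for all libraries, while 5 genes passed with TUBA1B, STMN1, HMGB2 and CKS2 left out of the score, 22 with the lowest 50% of cells and 16 with DESeq2 size factors. With score bin 2 in place of the rest, 0 were higher and 3 lower. The 141 genes lower became 214 with the lowest 50%, 301 at 10 CPM and 33 at 100 CPM. Leaving out a library gave 10 to 12 higher and 147 to 170 lower. All other alternatives kept both counts within 1.5 times, and thinning to 5000 UMIs kept 4 of the 9 genes. The 1 score limit, bin 2 and the removal of cells with a high MALAT1 share were chosen after seeing the data.

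Between libraries, the minimum level set the counts. The 12 genes higher in LNCaP-ENZ48 were 7 under 10% mitochondrial UMIs and 5 at 100 CPM, and the 35 lower were 10 at 100 CPM. At 10 and 100 CPM, RES-A gave 351 and 49 higher and 290 and 43 lower, RES-B gave 455 and 62 higher and 236 and 34 lower, and RES-B against RES-A gave 267 and 33 higher and 138 and 19 lower.

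Differences of ratios depended on more choices. In LNCaP-ENZ48 the 37 genes were 89 with cells thinned, 60 with separate parts of the UMIs, 88 with the lowest 10%, 59 with the lowest 50%, 89 under 10% mitochondrial, 123 at 10 CPM, 2 at 100 CPM and 3 against bin 2. In RES-A the 83 genes were 152 thinned, 127 with the lowest 10%, 130 with the lowest 50%, 197 under 10% mitochondrial, 227 at 10 CPM, 16 at 100 CPM, 166 with 1 score limit and 15 against bin 2. In RES-B the 70 genes were 142 thinned, 109 with the lowest 50%, 230 under 10% mitochondrial, 190 at 10 CPM, 8 at 100 CPM, 106 without cells high in MALAT1 and 9 against bin 2. Between RES-B and RES-A the 27 genes were 43 thinned, 15 with the shorter score, 152 under 10% mitochondrial, 83 at 10 CPM, 2 at 100 CPM, 56 without cells high in MALAT1, 104 with 1 score limit and 8 against bin 2. The cause was not tested, apart from the minimum level, which sets how many genes enter.

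The share of cells at or under the common limit was 32.0% (LNCaP-ENZ48), 3.82% (RES-A) and 10.0% (RES-B) without thinning, 39.5, 14.8 and 23.2% at 2000 UMIs, 48.6, 30.6 and 34.4% with the shorter score and 16.01, 2.72 and 5.87% with a limit at the lowest 10% of LNCaP cells. LNCaP itself moved to 24.96, 33.8, 39.0 and 12.6%, and with the study's cell limits the shares were 32.2, 38.8, 9.37 and 17.9%.

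Some single genes changed sign. Against bin 2, log2 ratios were −0.091 for CAMK2N1 in LNCaP, −0.021 for TM7SF2 in RES-B, −0.029 and −0.050 for SPON2 in LNCaP and RES-A, −0.048 for BLOC1S6 in LNCaP, 0.082 for CDKN1B in LNCaP, −0.054 for NETO1 in RES-B and −0.038 and −0.013 for SLC30A4 in RES-A and RES-B, and the CDK1 difference in RES-A was −0.17. Without cells high in MALAT1, NDRG1 was −0.047 in LNCaP and −0.083 in RES-B. With the shorter score, the differences were −0.34 for S100P in LNCaP-ENZ48, −0.44 for TOP2A in RES-B and 0.14 for TUBA1A between RES-B and RES-A. The PLA2G2A difference in RES-B was 2.45 thinned, 0.90 with separate parts, 2.04 with the lowest 10% and 0.63 without cells high in MALAT1. Of the single-gene values under all alternatives, 2415 stayed within the spread allowed, 1034 moved and 19 reversed. Score genes were read from few UMIs a cell, which limits how well any one cell was placed.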

Other observations

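Some gene groups outside the comparisons above also differed among the least cycling cells. Metallothionein genes had opposite signs within 1 library, since in LNCaP MT2A had 970 against 1379 CPM in the rest while MT1X had 462 against 377 CPM. For MT1X, 1 cell held 390 of its 6028 UMIs. Without the highest cell on either side, its log2 ratio was 0.22, below the 0.3 used here. The median of the metallothionein list in LNCaP changed sign under other settings, to 0.24 with cells thinned to 5000 UMIs and 0.35 with the shorter score. In RES-A, ATP2B1, a calcium pump of the plasma membrane, had 341 CPM in the least cycling cells and 239 CPM in the rest (log2 ratio 0.51), where LNCaP had 35.1 against 42.2 CPM. FOLH1, the prostate-specific membrane antigen, had 378 against 312 CPM in LNCaP, 580 against 511 in LNCaP-ENZ48, 256 against 234 in RES-A and 219 against 168 in RES-B, and passed the limit of 0.3 in RES-B only (0.38). NUPR1, a stress-induced chromatin protein, was higher in RES-A (0.33) and RES-B (0.36), at 393 against 312 and 454 against 352 CPM, and had 0.04 in LNCaP and 0.27 in LNCaP-ENZ48. These genes were picked from the lists after their values were seen.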
